A study of Homo sapiens with 12 samples.

Results

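The genes described here are the machinery of cell division: the Aurora, Polo and NEK kinases, the mitotic cyclins with CDK1, the cofactors and targets of the anaphase-promoting complex, the mitotic kinesins, the cytokinesis and spindle proteins, condensin, and the factors FOXM1 and MKI67. They were chosen by name as 52 genes. Of these, 50 had a named probe detected on 3 or more of the 12 arrays, out of 9409 genes tested, and the probe with the highest mean signal stood for each gene. UBE2S and KIF22 have no probe named here and are not analysed here.

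The arrays measured RNA of the digitonin-soluble cytoplasm of Cal51, 1 human breast carcinoma cell line. There were 4 groups of 3 arrays: cells given an siRNA against IPMK (siIPMK) and mitomycin C (MMC) for the last 24 hours, cells given siIPMK alone, cells given a control siRNA (siCONTROL) and MMC for the last 24 hours, and cells given siCONTROL alone. All were harvested 72 hours after transfection. IPMK is the inositol polyphosphate multikinase, and MMC crosslinks the strands of DNA. The sources used here give no siRNA sequence, no probe was named IPMK, so depletion itself could not be read, and only the cytoplasmic fraction was hybridised. The arrays of a group are numbered as experiments 1 to 3. Nothing used here says that these came from separate cultures, and if they did not, the p-values measure only the spread between these samples.

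Most of these transcripts are made late in the cell cycle, in G2 phase and mitosis, and are scarce in cells that have stopped dividing. Their promoters often carry a CHR element, bound by the MuvB core of the DREAM repressor or, in cycling cells, of the MYB-MuvB activator, which FOXM1 joins. Many also carry CCAAT boxes, bound by NF-Y. The p53 target CDKN1A, the CDK inhibitor p21, is known to shift the balance toward DREAM and so to lower this set of genes.

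With siIPMK the set was lower almost throughout. Without MMC, 0 of the 50 genes rose, 41 fell and 9 did not pass, by limma's moderated test at a Benjamini-Hochberg adjusted p under 0.05. Over all genes tested 19.9% fell and 20.4% rose in that comparison. The median log2 change of the 50 genes was -0.74, with a range of -2.01 to 0.09, while the median over all genes was 0.00. With MMC in both arms, 0 rose, 46 fell and 4 did not pass, against 20.4% falls and 20.8% rises over all genes. The median there was -0.85 with a range of -2.10 to 0.15. Both counts of falls include MKI67, which reached 3 detected arrays only through siCONTROL arrays. In these bulk samples a smaller share of cells in G2 phase and mitosis and less of each RNA in the cytoplasm per cell cannot be told apart. Only the cytoplasmic fraction was measured, so the amount of each RNA in whole cells is not known.

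Array by array, the median log2 signal of the 50 genes was 10.27, 9.59 and 9.81 in siIPMK cells with MMC and 10.41, 9.88 and 9.93 in siIPMK cells without it. It was 10.66, 10.67 and 10.83 in siCONTROL cells with MMC and 10.79, 10.90 and 10.82 in siCONTROL cells without it. Every siIPMK array was below every siCONTROL array, while the median over all genes stayed between 8.98 and 9.01 on the 12 arrays.

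**Figure D1:**
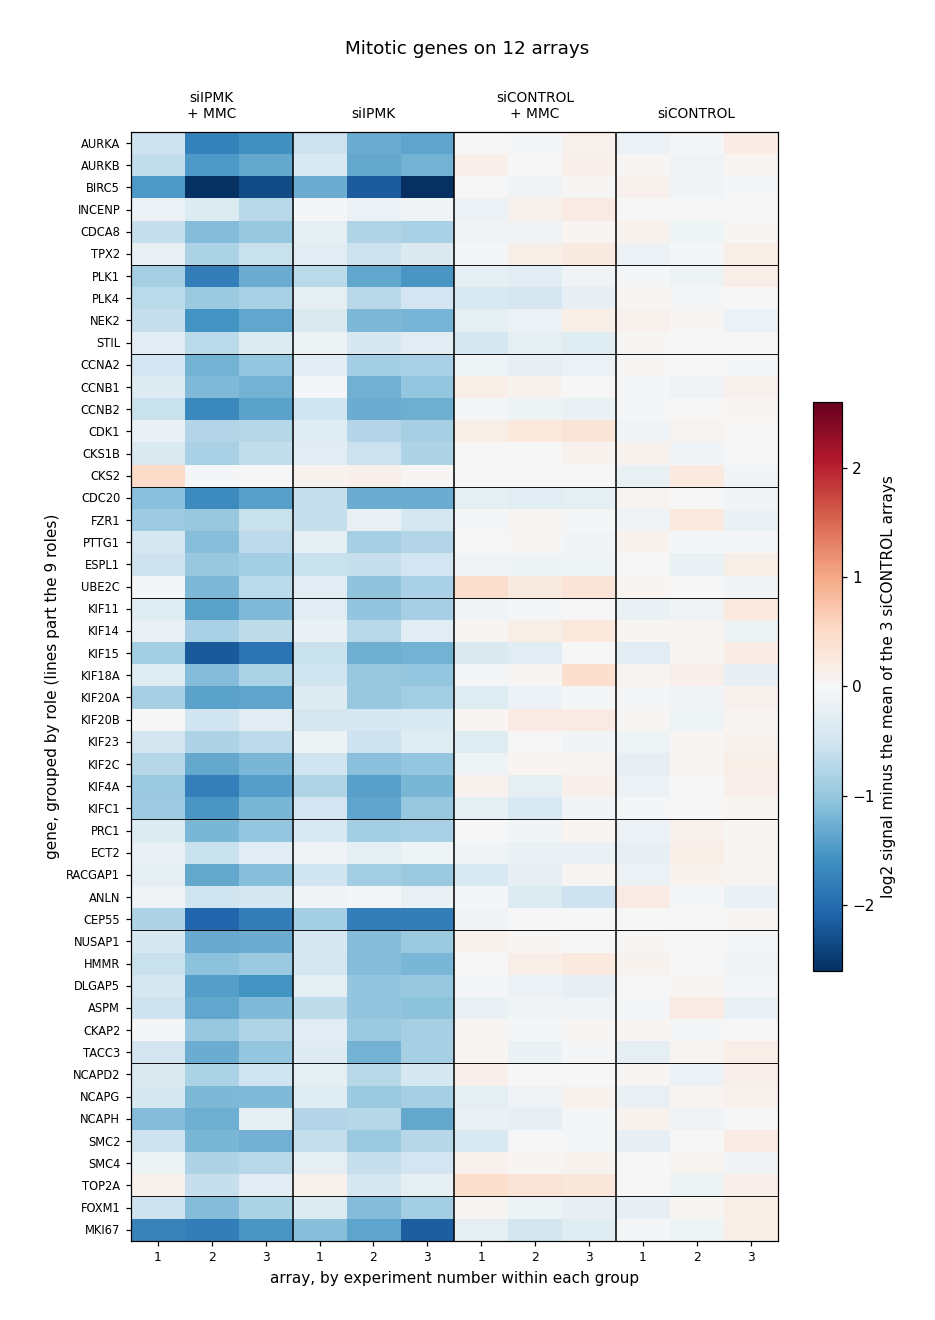
Each row is 1 of the 50 genes, grouped by role, and each column 1 array; colour gives the log2 signal minus the mean of the 3 siCONTROL arrays without MMC, blue for lower. The 6 siIPMK columns are blue in nearly every row, palest in experiment 1, and the siCONTROL columns are much paler.

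The siIPMK arrays of experiment 1 stood apart from those of experiments 2 and 3. On the first principal component over all genes, with 67.5% of the variance and an arbitrary sign, they lay at -12.0 with MMC and -6.6 without it. The other siIPMK arrays lay between -38.4 and -32.2 and the siCONTROL arrays between 22.7 and 30.4. In experiment 1 the siIPMK value was above both other siIPMK values for 47 of the 50 genes with MMC and 44 without it. It was still below every siCONTROL array of the same treatment for 46 and 45 of them. The share of all genes below every siCONTROL array in experiment 1 was not counted, so these counts only describe the 50 genes. Among all genes tested, experiment 1 had the highest siIPMK value for 39.6% with MMC and 39.7% without, and among the other genes that fell, for 67.1% and 77.1%. The median difference of the 50 genes from the siCONTROL mean was -0.43 with MMC and -0.35 without it in experiment 1, and -1.08 and -0.94 over experiments 2 and 3. With both siIPMK arrays of experiment 1 left out, 46 genes fell with MMC and 45 without it, against 25.8% and 26.6% of all genes. The level of the IPMK transcript in experiment 1 is not analysed here, and its part in these values was not tested.

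The size of the falls depended on these arrays more than their number did. Called falls of 2-fold or more numbered 16 with MMC and 9 without it, beside 3.2% and 2.94% of all genes. Both counts include MKI67, which was not detected on every siIPMK array and has no exact fold, and are 15 and 8 without it. The full counts were 29 and 21 with both siIPMK arrays of experiment 1 left out, beside 4.96% and 4.69%. Without the siIPMK array of experiment 2, or that of experiment 3, the 9 became 5. Without the siIPMK and MMC array of experiment 2, the 16 became 7. The shares of all genes at 2-fold were not counted with single arrays left out. The siIPMK and siCONTROL arrays did not overlap, with siIPMK lower, for 46 genes with MMC and 45 without it, beside 24.6% and 26.4% of all genes.

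Promoter sequence was compared because these genes moved together. Of the 50 genes, 44 had an entry among RefSeq promoters on GRCh38.p14, reaching from 250 bases before to 50 after each annotated start, with 53 promoters in all. The CHR letters TTTGAA, searched on both strands, were in 35 of the 53 (66.0%), against 10.3% of 11354 promoters of the other genes tested and 15.2% of all 35116 promoters of that length. The letters CCAAT, searched on both strands, were in 71.7%, against 35.8% and 34.6%. Both were in 50.9%, against 4.1% and 5.9%. A match is a description of letters, not a site. It did not part the genes by their change: without MMC the 33 genes with TTTGAA had a median log2 change of -0.71, from -1.55 to 0.09, and the 11 without it -0.76, from -0.98 to -0.28. With MMC the medians were -0.85 and -0.88. These medians are descriptions and were not tested. They leave out AURKA, BIRC5, TPX2, UBE2C, RACGAP1 and FOXM1, which had no entry, and so the largest fall of the 50, that of BIRC5. The -1.55 is that of MKI67, which has a dim probe.

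The next 8 windows run from 130 bases before the start to 20 after it, 5′ to 3′ along the gene, with TTTGAA and CCAAT matches of either strand (TTCAAA and ATTGG on the strand shown) in capitals. The first 5 belong to genes that fell without MMC, CCNB2, CDC20, PLK1, HMMR and MKI67. All 5 carry TTTGAA, while CCNA2, CCNB1 and AURKB, not shown, also fell and have no TTTGAA match in their promoters. MKI67 has a dim probe and was tested only because siCONTROL arrays detected it, so its call adds no support for a fall. The last 3 belong to genes that did not pass, CKS2, ANLN and STIL, and are shown to set their letters beside those of the genes that fell. INCENP, not shown, did not pass without MMC either and has a TTTGAA match.
CCNB2 (chr15:59105016-59105165, plus strand): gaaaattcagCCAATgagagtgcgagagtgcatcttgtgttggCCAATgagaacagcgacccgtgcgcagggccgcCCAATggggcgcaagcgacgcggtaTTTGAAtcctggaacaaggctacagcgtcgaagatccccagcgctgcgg
CDC20 (chr1:43358851-43359000, plus strand): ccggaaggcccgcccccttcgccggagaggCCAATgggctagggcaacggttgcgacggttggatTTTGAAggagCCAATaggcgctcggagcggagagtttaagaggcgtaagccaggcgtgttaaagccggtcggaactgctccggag
PLK1 (chr16:23678759-23678908, plus strand): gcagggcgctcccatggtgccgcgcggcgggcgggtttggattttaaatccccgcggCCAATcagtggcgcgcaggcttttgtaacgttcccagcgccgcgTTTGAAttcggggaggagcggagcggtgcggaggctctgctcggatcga
HMMR (chr5:163460502-163460651, plus strand): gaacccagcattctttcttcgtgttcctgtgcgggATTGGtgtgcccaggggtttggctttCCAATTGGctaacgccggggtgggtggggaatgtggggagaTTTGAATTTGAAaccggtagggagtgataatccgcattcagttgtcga
MKI67 (chr10:128126404-128126553, minus strand): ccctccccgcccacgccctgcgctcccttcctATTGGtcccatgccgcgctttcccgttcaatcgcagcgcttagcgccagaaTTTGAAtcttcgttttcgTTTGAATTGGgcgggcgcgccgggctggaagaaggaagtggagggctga
CKS2 (chr9:89311065-89311214, plus strand): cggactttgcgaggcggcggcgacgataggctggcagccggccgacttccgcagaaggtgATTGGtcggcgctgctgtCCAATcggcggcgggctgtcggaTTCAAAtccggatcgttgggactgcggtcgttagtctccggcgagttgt
ANLN (chr7:36389732-36389881, plus strand): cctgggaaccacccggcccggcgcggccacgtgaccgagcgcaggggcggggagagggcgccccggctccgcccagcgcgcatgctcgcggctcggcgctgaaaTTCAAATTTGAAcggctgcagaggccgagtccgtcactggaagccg
STIL (chr1:47314128-47314277, minus strand): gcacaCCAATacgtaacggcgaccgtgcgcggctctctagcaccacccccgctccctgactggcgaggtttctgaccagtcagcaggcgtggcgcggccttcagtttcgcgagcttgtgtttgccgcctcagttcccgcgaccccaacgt
In CCNB2, PLK1 and CKS2 a CHR match began at the same place, 29 bases before the start (-29), and MKI67 has a CHR match at -29 too. The match of CKS2 is on the opposite strand to that of CCNB2, and its CCAAT matches in the window are at -70 and -52, against -120, -87 and -54 in CCNB2. HMMR and ANLN each have adjoining CHR matches, HMMR in the same direction and ANLN in opposite ones. STIL has no CHR match in its window. Matches can share bases, as the CHR match at -29 and the CCAAT match at -24 of MKI67 do, and the CCAAT matches of HMMR at -69 and -66.

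**Figure D2:**
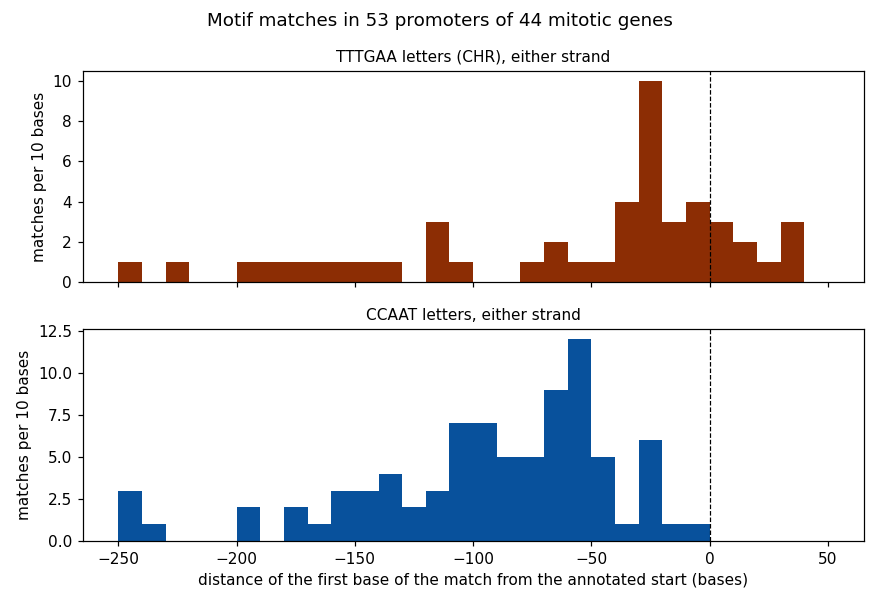
Bars count motif matches in 53 promoters of 44 of the genes per 10 bases of distance from the annotated start, TTTGAA above and CCAAT below, on either strand. The 48 TTTGAA matches have a median position of -29 and 30 of them begin between -70 and 20; the 83 CCAAT matches have a median position of -87. Some promoters of the same gene overlap, as in PTTG1 and AURKB, so a match can be counted more than once.

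Among the Aurora kinases and the chromosomal passenger complex, 5 of 6 genes fell without MMC and 6 of 6 with it. BIRC5 encodes survivin, the passenger subunit that brings Aurora B to centromeres. Its log2 signal in experiments 1 to 3 was 10.06, 9.19 and 8.75 in siIPMK cells, against 11.46, 11.27 and 11.32 in siCONTROL cells. The groups were far apart, with experiment 1 the highest siIPMK array, and the change of -2.01 ± 0.28 (SE, n = 3 per group, limma adjusted p = 0.00014) was the largest of the 50. AURKA, the kinase of centrosomes and spindle poles, had 11.50, 10.76 and 10.69 in siIPMK cells, against 11.90, 12.02 and 12.24 in siCONTROL cells, a change of -1.07 ± 0.26 (limma adjusted p = 0.00542). AURKB, the kinase of the passenger complex, had 11.33, 10.39 and 10.50 in siIPMK cells, against 11.75, 11.63 and 11.78 in siCONTROL cells, a change of -0.98 ± 0.23 (limma adjusted p = 0.00384). Neither gene's groups overlapped. INCENP, the scaffold of the same complex, had 8.57, 8.44 and 8.51 in siIPMK cells, against 8.59, 8.62 and 8.59 in siCONTROL cells, and its -0.09 ± 0.15 did not pass (limma adjusted p = 0.637). Of the other members, CDCA8, the passenger subunit borealin, and TPX2, the activator of Aurora A, fell by 0.62 ± 0.16 and 0.40 ± 0.15.

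PLK1, the Polo kinase of mitotic entry and spindle assembly, had log2 signals of 8.86, 8.20 and 8.05 in siIPMK cells, against 9.52, 9.42 and 9.74 in siCONTROL cells. The groups did not overlap, and the change was -1.20 ± 0.22 (limma adjusted p = 0.00099). PLK4, the kinase that starts centriole duplication, and NEK2, a centrosome kinase, fell by 0.49 ± 0.13 and 0.92 ± 0.24. STIL, the partner of PLK4 at the new centriole, had 10.26, 9.97 and 10.10 in siIPMK cells, against 10.41, 10.37 and 10.37 in siCONTROL cells. All siIPMK values of STIL were the lower ones, but -0.28 ± 0.13 did not pass (limma adjusted p = 0.0899). It passed with both siIPMK arrays of experiment 1 left out (-0.35, limma adjusted p = 0.0167).

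The cyclins that bind CDK1 fell together with it. CCNA2, cyclin A2, had log2 signals of 12.23, 11.62 and 11.68 in siIPMK cells, against 12.55, 12.51 and 12.48 in siCONTROL cells, a change of -0.67 ± 0.17 (limma adjusted p = 0.00744). CCNB2, cyclin B2, had 12.18, 11.42 and 11.44, against 12.67, 12.68 and 12.75 in siCONTROL cells, a change of -1.02 ± 0.23 (limma adjusted p = 0.00354). Neither overlapped. CDK1, the kinase that drives mitosis, had 11.36, 10.91 and 10.80 in siIPMK cells, against 11.60, 11.75 and 11.67 in siCONTROL cells, a change of -0.65 ± 0.16 (limma adjusted p = 0.00628). CCNB1, cyclin B1, had 9.80, 8.59 and 8.83 in siIPMK cells, against 9.81, 9.75 and 9.94 in siCONTROL cells. Its experiment 1 lay inside the siCONTROL range while experiments 2 and 3 lay well below it. Its call of -0.76 ± 0.27 (limma adjusted p = 0.0355) ended when any 1 of 5 of its 6 arrays was left out (limma adjusted p of 0.0681 to 0.172) and with median scaling over all probes (0.0679).

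CKS1B and CKS2 encode the small CDK-binding proteins of 1 family and went apart. CKS1B had log2 signals of 13.53, 13.25 and 13.00 in siIPMK cells, against 13.89, 13.72 and 13.79 in siCONTROL cells, and fell by 0.54 ± 0.13 (limma adjusted p = 0.00461). CKS2 had 13.41, 13.45 and 13.34 in siIPMK cells, against 13.13, 13.57 and 13.24 in siCONTROL cells. Its siIPMK values lay inside the siCONTROL range, and the change of 0.09 ± 0.13 did not pass (limma adjusted p = 0.602). A further CKS2 probe had a change of 0.02. The difference between the genes' changes was not tested, nor was cross-hybridisation between them.

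Of the 5 measured genes around the anaphase-promoting complex, 4 fell. CDC20, its mitotic activator, had log2 signals of 13.13, 12.44 and 12.44 in siIPMK cells, against 13.80, 13.72 and 13.66 in siCONTROL cells. The groups were well apart, and the change was -1.06 ± 0.16 (limma adjusted p = 0.000271). FZR1, the activator CDH1 of late mitosis and G1, had 6.19, 6.59 and 6.33 in siIPMK cells, against 6.69, 7.04 and 6.62 in siCONTROL cells, and its -0.42 ± 0.19 did not pass (limma adjusted p = 0.0862). PTTG1, securin, ESPL1, the protease separase that securin holds inactive, and UBE2C, the ubiquitin-conjugating enzyme of the complex, fell by 0.62 ± 0.16, 0.56 ± 0.14 and 0.73 ± 0.22.

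All 10 measured mitotic kinesins were lower, and 8 fell. KIF4A, the chromokinesin that works with PRC1 on the central spindle, had log2 signals of 8.33, 7.70 and 7.93 in siIPMK cells, against 8.97, 9.13 and 9.25 in siCONTROL cells, a change of -1.13 ± 0.20 (limma adjusted p = 0.000801). KIF11, the motor that pushes spindle poles apart, had 10.08, 9.34 and 9.50, against 10.21, 10.28 and 10.63 in siCONTROL cells, a change of -0.73 ± 0.24 (limma adjusted p = 0.0241). Neither overlapped. The KIF11 call ended without siIPMK experiment 2 or 3 or siCONTROL experiment 3 (limma adjusted p of 0.0873 to 0.11) and with median scaling over all probes (0.0576). KIF23, the motor of the centralspindlin complex, had 10.09, 9.68 and 9.91 in siIPMK cells, against 10.10, 10.25 and 10.31 in siCONTROL cells. Its experiment 1 was just under the lowest siCONTROL value, and -0.33 ± 0.13 did not pass (limma adjusted p = 0.0644), while it passed without the siIPMK array of experiment 1 (-0.42, limma adjusted p = 0.0234). A dimmer KIF23 probe had a change of 0.09, the only opposite direction among 16 genes with further probes. The other kinesin that did not pass was KIF14, at -0.40 ± 0.17, and the remaining falls ran from 0.42 in KIF20B to 1.02 in KIF15.

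**Figure D3:**
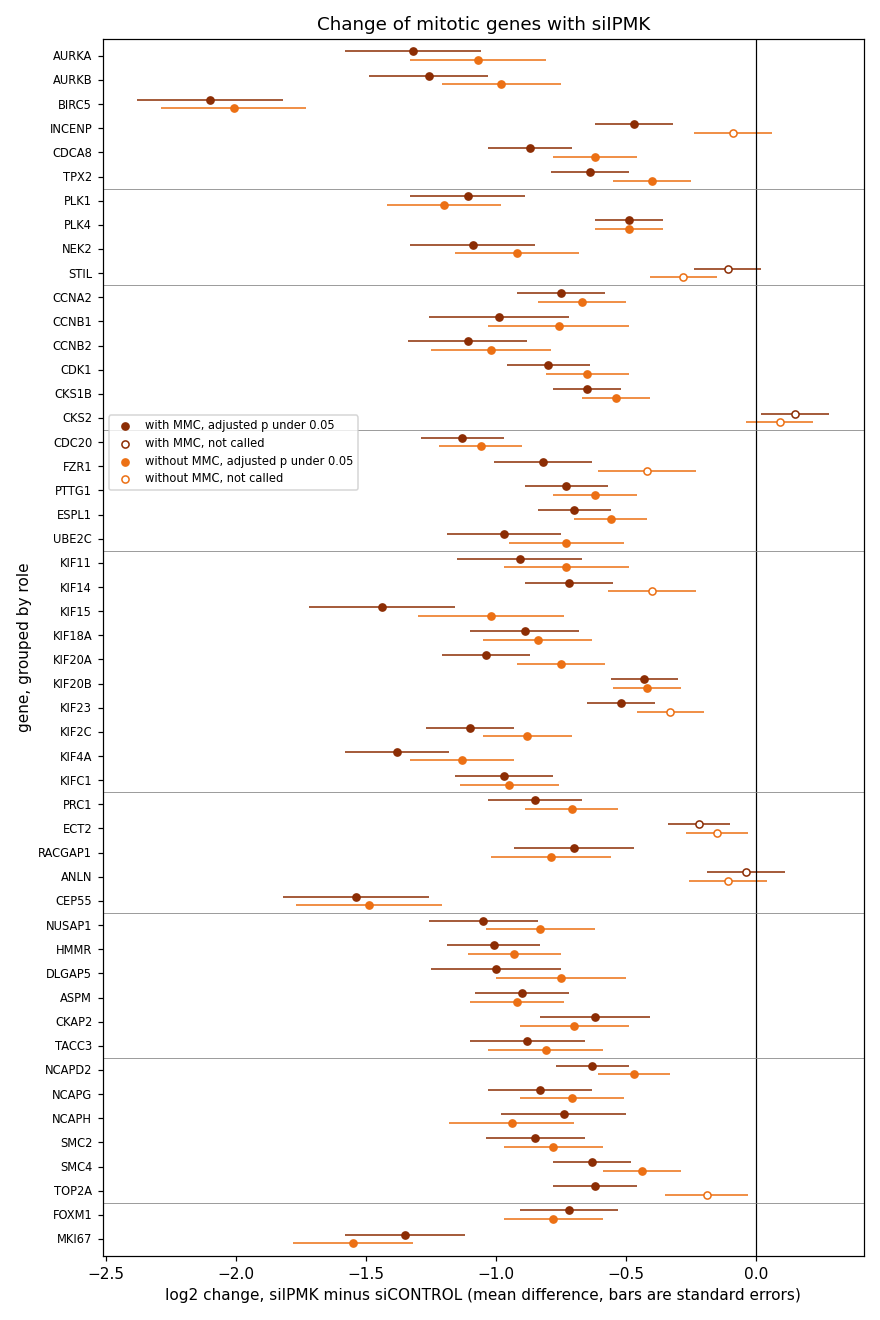
Points are log2 changes, siIPMK minus siCONTROL, of the 50 genes with MMC (upper point of each row) and without MMC (lower point), bars are standard errors with 3 arrays per group, filled points passed at a limma adjusted p under 0.05. All points lie left of 0 except both CKS2 points; BIRC5 and CEP55 lie farthest left among genes detected on every array, and the place of MKI67 rests on a dim probe.

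Cytokinesis genes were split. CEP55, a scaffold of the midbody, had log2 signals of 10.42, 9.49 and 9.50 in siIPMK cells, against 11.29, 11.28 and 11.32 in siCONTROL cells. The groups were wide apart and the change was -1.49 ± 0.28 (limma adjusted p = 0.000974). PRC1, the bundler of central spindle microtubules, and RACGAP1, the other centralspindlin subunit, fell by 0.71 ± 0.18 and 0.79 ± 0.23. ANLN, the actin-binding ring protein anillin, had 9.59, 9.63 and 9.48 in siIPMK cells, against 9.89, 9.65 and 9.50 in siCONTROL cells. Its groups overlapped, and -0.11 ± 0.15 did not pass (limma adjusted p = 0.573). ECT2, the exchange factor that activates RhoA for the ring, had -0.15 ± 0.12 with overlap and did not pass either (limma adjusted p = 0.35).

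All 6 spindle proteins fell, within a narrow range of 0.70 to 0.93 on the log2 scale. HMMR, a microtubule-binding hyaluronan receptor, had log2 signals of 10.48, 9.81 and 9.75 in siIPMK cells, against 11.03, 10.94 and 10.85 in siCONTROL cells, a change of -0.93 ± 0.18 (limma adjusted p = 0.00117). CKAP2, a microtubule-stabilising protein, had 10.03, 9.33 and 9.43, against 10.35, 10.26 and 10.29 in siCONTROL cells, a change of -0.70 ± 0.21 (limma adjusted p = 0.0165). Neither overlapped, and the CKAP2 call ended without siIPMK experiment 2 (limma adjusted p = 0.0807) or 3 (0.0709). NUSAP1, DLGAP5, ASPM and TACC3, which build or steady spindle microtubules, fell by 0.75 to 0.92.

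The condensin I subunits and the shared SMC pair all fell, while topoisomerase II alpha did not pass. NCAPG, a HEAT-repeat subunit, had log2 signals of 11.14, 10.49 and 10.58 in siIPMK cells, against 11.26, 11.52 and 11.56 in siCONTROL cells, a change of -0.71 ± 0.20 (limma adjusted p = 0.0131). That call ended without siIPMK experiment 2 (limma adjusted p = 0.0657) or 3 (0.0577). NCAPH, the subunit that bridges the SMC heads, had 6.27, 6.30 and 5.70 in siIPMK cells, against 7.12, 6.94 and 7.04 in siCONTROL cells. It was detected on 2 of the 3 siIPMK arrays and on all siCONTROL arrays, so its size of -0.94 ± 0.24 (limma adjusted p = 0.00777) rests on a dim probe, and in the authors' deposited values it was -0.38. NCAPD2, SMC2 and SMC4 fell by 0.47 ± 0.14, 0.78 ± 0.19 and 0.44 ± 0.15. TOP2A, which untangles sister DNA, had 12.47, 11.91 and 12.13 in siIPMK cells, against 12.35, 12.24 and 12.50 in siCONTROL cells. Its experiment 1 lay inside the siCONTROL range, and -0.19 ± 0.16 did not pass (limma adjusted p = 0.368). It passed with both siIPMK arrays of experiment 1 left out (-0.34, limma adjusted p = 0.0144).

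FOXM1, the transcription factor that activates many of these genes, had log2 signals of 9.79, 9.03 and 9.27 in siIPMK cells, against 9.94, 10.19 and 10.32 in siCONTROL cells. No value overlapped, and the change was -0.78 ± 0.19 (limma adjusted p = 0.00484). MKI67, the chromosome-coating antigen used as a proliferation marker, had 6.33, 6.07 and 5.31 in siIPMK cells, against 7.39, 7.34 and 7.61 in siCONTROL cells. Its change was -1.55 ± 0.23 (limma adjusted p = 0.000192), with detection on 1 of 3 siIPMK and 3 of 3 siCONTROL arrays, so the size is uncertain. In the authors' deposited values, which compress dim signals more, it was -0.65. MKI67 was tested only because siCONTROL arrays detected it, so its p-value adds no support for a fall.

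**Figure D4:**
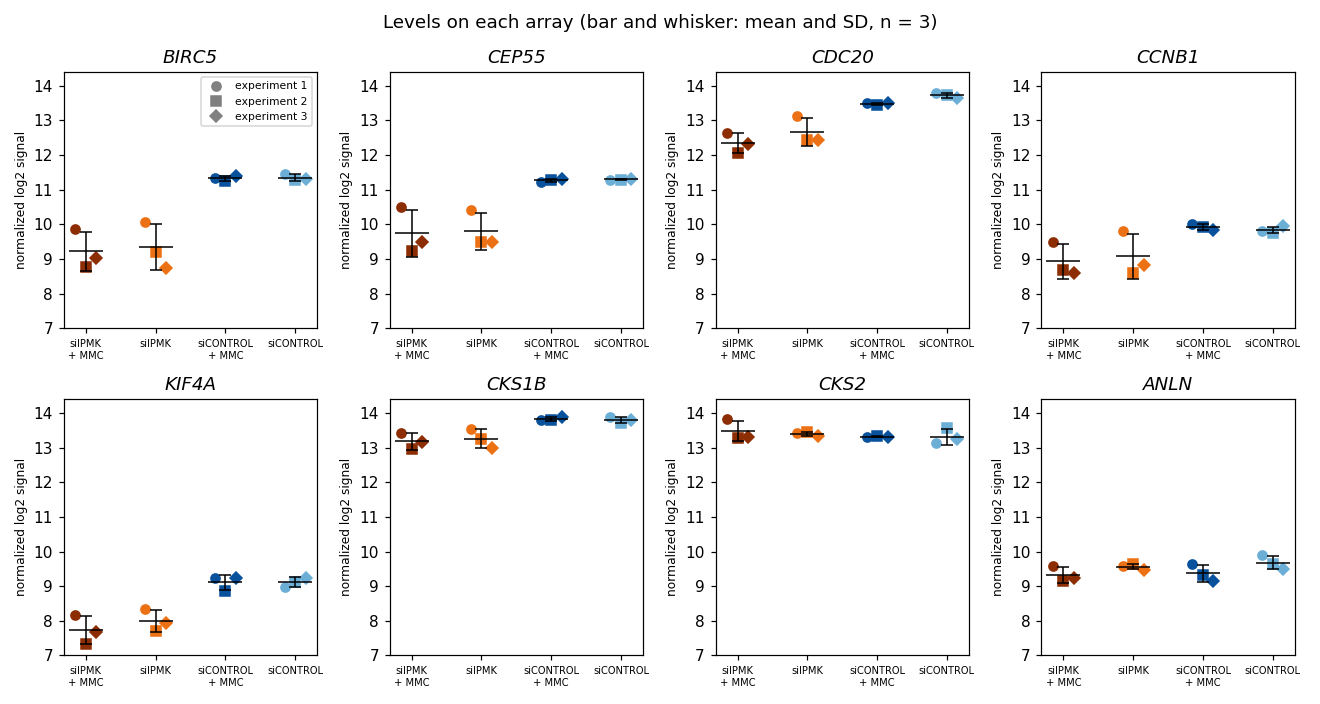
Normalized log2 signal of 8 of the genes on each array, with marker shapes for experiments 1 to 3 and a bar and whisker for the mean and SD (n = 3). In BIRC5, CEP55, CDC20, KIF4A and CKS1B every siIPMK point lies below every siCONTROL point; in CCNB1 experiment 1 of siIPMK without MMC reaches the siCONTROL points, and in CKS2 and ANLN the groups overlap.

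The same comparison was made with MMC in both arms. The 9 genes that had not passed without MMC parted into 5 that fell under it, INCENP, FZR1, KIF14, KIF23 and TOP2A, and 4 that did not pass, STIL, CKS2, ECT2 and ANLN. TOP2A had log2 signals of 12.47, 11.76 and 12.06 in siIPMK cells with MMC, against 12.79, 12.69 and 12.66 in siCONTROL cells with MMC. The groups no longer overlapped, and the change was -0.62 ± 0.16 (limma adjusted p = 0.00801). INCENP had 8.44, 8.25 and 7.88, against 8.45, 8.71 and 8.81 in siCONTROL cells with MMC, a change of -0.47 ± 0.15 (limma adjusted p = 0.0199). Without siIPMK and MMC experiment 3 the INCENP change was -0.31 and no longer passed (limma adjusted p = 0.103), nor did it pass without siCONTROL and MMC experiment 2 (0.0639) or 3 (0.0845), in its own 6 arrays (0.0591) or with median scaling over all probes (0.215). FZR1 had 5.84, 5.80 and 6.21, against 6.75, 6.85 and 6.74 in siCONTROL cells with MMC, a change of -0.82 ± 0.19 (limma adjusted p = 0.00326), detected on 1 of 3 and 3 of 3 arrays. In the authors' deposited values FZR1 fell by 0.32 (limma adjusted p = 0.00345). KIF23, at -0.52 ± 0.13, did not pass with median scaling over all probes (limma adjusted p = 0.0902).

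Among genes detected on every array, the deepest falls under MMC were in BIRC5, CEP55 and KIF15. BIRC5 had log2 signals of 9.86, 8.78 and 9.02 in siIPMK cells with MMC, against 11.33, 11.26 and 11.39 in siCONTROL cells with MMC, a change of -2.10 ± 0.28 (limma adjusted p = 0.000143). CEP55 had 10.50, 9.23 and 9.49, against 11.23, 11.29 and 11.31 in siCONTROL cells with MMC, a change of -1.54 ± 0.28 (limma adjusted p = 0.000821). KIF15, a spindle kinesin that works beside KIF11, had 8.22, 6.92 and 7.19, against 8.74, 8.82 and 9.09 in siCONTROL cells with MMC, a change of -1.44 ± 0.28 (limma adjusted p = 0.00125). In all of these siIPMK experiment 1 was the highest siIPMK array and still under each siCONTROL array. Further called falls of 2-fold or more included KIF4A (-1.38 ± 0.20), AURKA (-1.32 ± 0.26), AURKB (-1.26 ± 0.23), CDC20 (-1.13 ± 0.16), PLK1 (-1.11 ± 0.22) and CCNB2 (-1.11 ± 0.23). MKI67 was detected on 0 of 3 siIPMK and 3 of 3 siCONTROL arrays with MMC, which makes it at least 1.84-fold lower. That bound sets the siCONTROL mean against the lowest signal of a detected probe on each siIPMK array. The measured means were 5.76 and 7.11. MKI67 was tested only because siCONTROL arrays detected it, so its fall had to follow, and the 46 falls with MMC include it.

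CCNB1 no longer overlapped between the groups, with 9.50, 8.69 and 8.60 in siIPMK cells with MMC, against 10.01, 9.92 and 9.84 in siCONTROL cells with MMC, a change of -0.99 ± 0.27 (limma adjusted p = 0.00895). Other calls under MMC were closer to the threshold. CKAP2 fell by 0.62 ± 0.21 (limma adjusted p = 0.0303), a call that ended when any 1 of 5 arrays was left out (0.0619 to 0.147), with median scaling over all probes (0.0986) and with the mean over its probes (0.0536). NCAPH, dim and detected on 1 of 3 siIPMK arrays, fell by 0.74 ± 0.24 (limma adjusted p = 0.0257), and that call ended when any 1 of 5 arrays was left out (0.0516 to 0.123), without experiment 1 of both siIPMK groups (0.0564) and with median scaling over all probes (0.0557). RACGAP1 fell by 0.70 ± 0.23 with overlap, since its siIPMK experiment 1 at 10.68 exceeded the lowest siCONTROL value of 10.51. CKS2 had 13.82, 13.29 and 13.32 in siIPMK cells with MMC, against 13.31, 13.33 and 13.32 in siCONTROL cells with MMC, and 0.15 ± 0.13 did not pass (limma adjusted p = 0.372). Without experiment 1 of both siIPMK groups it was -0.02.

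Few of these genes changed with MMC itself. In siIPMK cells 0 of the 50 genes passed by limma, beside 0.361% of all genes. At an unadjusted p under 0.05 there were 6, beside 5.64% of all genes. The median log2 change, MMC minus untreated, was -0.17. That median rests on single arrays: it was -0.38 without siIPMK and MMC experiment 1, -0.01 without siIPMK and MMC experiment 2 and 0.02 without siIPMK experiment 1. In siCONTROL cells 0 passed by limma (3 at an unadjusted p under 0.05), beside 2.06% of all genes, and the median change was -0.03, with a range of -0.35 to 0.35. Same-numbered arrays with and without MMC deviated together within each siRNA. In siIPMK cells the arrays numbered 2 and 3 also did so across numbers. A fit by the same-numbered pairs passed more genes. It is the replicate block for the MMC comparisons and was chosen after seeing the data. By that limma fit 0 rose and 6 fell in siIPMK cells, beside 1.96% rises and 0.999% falls of all genes, and 3 rose and 4 fell in siCONTROL cells, beside 6.17% and 3.92%.

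In siIPMK cells the falls under MMC by pairs were led by spindle and cytokinesis kinesins. KIF20A, a motor of the central spindle, was lower with MMC by 0.52, 0.40 and 0.47 on the log2 scale in experiments 1 to 3, a change of -0.46 ± 0.08 (limma by pairs, adjusted p = 0.00123). KIF15 changed by -0.31, -0.93 and -0.69, a mean of -0.64 ± 0.12 (limma by pairs, adjusted p = 0.00169). All 3 experiments of both genes went down. They also went down in all 3 siCONTROL experiments, by a mean of 0.17 for KIF20A and 0.23 for KIF15. Neither passed there (limma by pairs, adjusted p = 0.208 and 0.245). PLK4 changed by -0.35 ± 0.09 (limma by pairs, adjusted p = 0.0225) and KIF23 by -0.33 ± 0.09 (adjusted p = 0.0401). DLGAP5 (-0.39 ± 0.09) and CDC20 (-0.32 ± 0.08) also fell (limma by pairs, adjusted p = 0.0112 and 0.0191) and are named after their values were seen. Left without experiment 1 of both siIPMK groups, KIF15, KIF20A and DLGAP5 still passed, PLK4 (limma by pairs, adjusted p = 0.128), CDC20 (0.168) and KIF23 (0.102) did not, and AURKA (-0.34, adjusted p = 0.0431) did. FZR1, among the lowest unadjusted p values, changed by -0.42 ± 0.19 and passed in neither fit (limma adjusted p = 0.834, by pairs 0.289).

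In siCONTROL cells the 3 rises and 4 falls by pairs are near the shares over all genes, so they are given as single genes only. TOP2A was higher with MMC by 0.44, 0.45 and 0.16 in experiments 1 to 3, a change of 0.35 ± 0.08 (limma by pairs, adjusted p = 0.00459). CDK1 was higher by 0.23, 0.19 and 0.33, a change of 0.25 ± 0.08 (limma by pairs, adjusted p = 0.0442). UBE2C, named after its value was seen, rose by 0.34 ± 0.08 (limma by pairs, adjusted p = 0.00544). PLK4 changed by -0.46, -0.37 and -0.21, with a mean of -0.35 ± 0.09 (limma by pairs, adjusted p = 0.00894), and STIL by -0.47, -0.25 and -0.30, with a mean of -0.34 ± 0.09 (adjusted p = 0.0141). Both genes were lower in 3 of 3 experiments, and neither passed without pairs (limma adjusted p = 0.274 and 0.282). With all arrays unpaired and experiment 1 of both siIPMK groups left out, PLK4 was the 1 gene called (-0.35, limma adjusted p = 0.045), beside 0.988% falls of all genes. ANLN fell by 0.31 ± 0.10 (limma by pairs, adjusted p = 0.0415), as did CDC20, named after its value was seen, by 0.25 ± 0.08 (adjusted p = 0.0382).

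**Figure D5:**
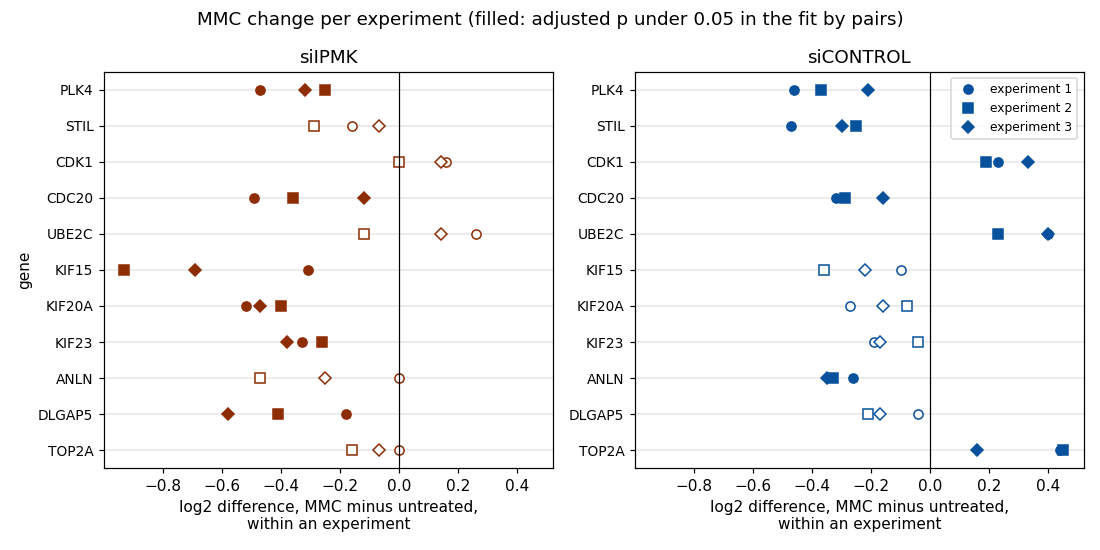
Points are log2 differences, MMC minus untreated, within an experiment, for the 11 genes that passed by pairs under either siRNA, siIPMK on the left and siCONTROL on the right, filled where the gene passed under that siRNA. KIF15, KIF20A, KIF23, PLK4, STIL, DLGAP5 and CDC20 have all points left of 0 under both siRNAs, and TOP2A, UBE2C and CDK1 have all siCONTROL points right of 0.

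The difference between the MMC changes, siIPMK minus siCONTROL, passed by limma for 0 of the 50 genes and for 0.0% of all genes. At an unadjusted p under 0.05 there were 0 of the 50, beside 3.48% of all genes. By pairs it passed for 0, beside 0.638% of all genes, and 7 had an unadjusted p under 0.05, beside 11.3%. TOP2A had the lowest unadjusted p among the 50 in both fits, with an MMC change of -0.08 in siIPMK cells against 0.35 in siCONTROL cells, a difference of -0.43 ± 0.23 (limma adjusted p = 0.999) or ± 0.11 by pairs (limma adjusted p = 0.0763). Without experiment 1 of both siIPMK groups the difference by pairs was -0.46 and passed (limma adjusted p = 0.0242). INCENP and FZR1, the next in unadjusted p in the unpaired fit, had differences of -0.37 ± 0.21 and -0.41 ± 0.26 (limma adjusted p = 0.999 for both, by pairs 0.385 and 0.604). By pairs KIF20A (-0.30 ± 0.12) and KIF15 (-0.41 ± 0.17) came next after TOP2A and did not pass (limma adjusted p = 0.308 and 0.33). So falls that passed with MMC and not without it, such as those of INCENP, KIF14 and KIF23, are not shown to differ between the treatments.

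CDKN1A, which is not one of the 50 genes, is given because p21 is the known brake on them. Its mean log2 signal was 14.98 ± 0.10 in siIPMK cells with MMC and 14.05 ± 0.43 in siIPMK cells, and 14.10 ± 0.11 in siCONTROL cells with MMC and 12.13 ± 0.04 in siCONTROL cells (SD, n = 3). The change was 1.92 ± 0.15 with siIPMK alone (limma adjusted p = 3.88e-06) and 1.97 ± 0.15 with MMC alone (limma adjusted p = 4.23e-06). Beside these, the median change of the 50 mitotic genes was -0.74 with siIPMK alone and -0.03 with MMC alone. Both comparisons share the siCONTROL arrays, so their values are only set side by side. Exposure differed too, with MMC present for the last 24 hours and the siRNA for 72. With MMC in both arms, siIPMK against siCONTROL, CDKN1A changed by 0.89 ± 0.15 (limma adjusted p = 0.000618) and the median of the 50 genes was -0.85. The part of CDKN1A in the changes of these genes was not tested.

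Genes near the set in function were counted from further lists, to be read beside 20.4% falls and 20.8% rises of all genes with MMC and 19.9% and 20.4% without it. Of 34 measured other G2/M genes, 26 fell with MMC and 23 without it and 0 rose in either, with medians of -0.64 and -0.57. Among them without MMC the mitotic kinase PBK changed by -1.14 ± 0.18 (limma adjusted p = 0.000362) and GTSE1, a microtubule-binding regulator of p53, by -1.13 ± 0.19 (limma adjusted p = 0.00056). Of 8 measured condensin II and cohesin genes 0 rose and 4 fell without MMC (median -0.29), with the condensin II subunits NCAPH2 at -0.66 ± 0.19 and NCAPG2 at -0.64 ± 0.23. With MMC 1 rose and 3 fell.

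Lists that share a family name with the set had medians nearer 0, and several of their counts are near those shares of all genes. Of 12 measured core subunits of the anaphase-promoting complex, 1 rose and 3 fell without MMC (median -0.10), with CDC23 at -0.68 ± 0.10 (limma adjusted p = 0.000237) and ANAPC5 at 0.45 ± 0.08 (limma adjusted p = 0.000919). With MMC 1 rose and 4 fell. Of 14 transport and other kinesins 4 rose and 2 fell without MMC (median 0.20). Of those 4 rises 2, KIF13A and KIF3C, were detected on no siCONTROL array without MMC and were tested only because siIPMK arrays detected them, so their rises had to follow and no size is given. With MMC 2 rose, KIF13A again undetected in siCONTROL cells, and 0 fell. Of 22 other cyclins and CDKs 5 rose and 2 fell without MMC (median 0.09), with cyclin G2, CCNG2, at 1.10 ± 0.13 (limma adjusted p = 4.8e-05) and the S-phase kinase CDK2 at -0.81 ± 0.21 (limma adjusted p = 0.00825). With MMC 7 rose and 5 fell. Of 12 genes of the DREAM, MYB-MuvB and p53-p21 routes 2 rose and 4 fell without MMC (median -0.25), the other rise being the E2F partner TFDP2 at 0.98 ± 0.17 (limma adjusted p = 0.000637). With MMC 2 rose and 6 fell. No test set these lists against the 50 genes.

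Across the series 12122 to 13458 probes were detected per array, with a median of 20 or 21 beads per probe. Of 8 epithelial markers 4 were measured, KRT8, KRT18, KRT19 and EPCAM, each on all 12 arrays. Their summed signal was 17777 to 20382 in siIPMK cells with MMC, 15897 to 20190 in siIPMK cells, 11392 to 12604 in siCONTROL cells with MMC and 10376 to 11133 in siCONTROL cells. Of 9 mesenchymal markers 4 were measured, with sums of 11956 to 15203 in siIPMK cells and 10106 to 11798 in siCONTROL cells. Of 7 leukocyte and 4 endothelial markers 1 each was measured, at signals of at most 163. Of 9 nuclear RNAs, which would mark leakage into the cytoplasmic fraction, 4 were measured and their sum was 4757 to 5341 in siIPMK cells, against 3340 to 3535 in siCONTROL cells, both without MMC. There RPPH1 (3.11 ± 0.14), SNORD13 (1.61 ± 0.20) and RN7SK (1.25 ± 0.42) rose and TUG1 (-0.44 ± 0.10) fell. So 3 of these 4 RNAs went opposite to the mitotic genes, and their part in the falls was not tested.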

How the data were processed

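Cytoplasmic RNA of Cal51 cells was hybridised to Illumina bead arrays, 3 for each of 2 siRNAs with and without MMC. Per the file headers, the authors deposited a mean intensity, a detection p-value and a bead count for each of 48802 probes on each array. Their second deposited table holds 14853 probes on a log2-like scale with a median of 8.82 in every column. Per the submitters' processing notes it was made with lumi; the settings are not given in the sources used here.

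In R 4.3.3 with limma 3.58.1, neqc took the background from the detection p-values, and intensities, raised by an offset of 16, were quantile normalized and turned to log2. For that reason changes of dim probes are understated. A probe stayed in if 3 or more of the 12 arrays detected it at p under 0.01 (13830, of which 12086 had 1 symbol), and the brightest probe stood for each of 9409 genes. Symbols came from GEO's platform annotation, updated through RefSeq. One limma fit (lmFit, then eBayes with a trend) estimated the 4 group means from the 12 arrays together, and p-values were adjusted over all genes. Errors of changes are standard errors. Arrays carry no read depth, so their number limits precision.

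The 50 genes, their roles and the further lists were chosen with earlier results of these data known. Genes given with every array were 16 fixed ones, the largest and smallest change of each role without MMC, the 5 lowest unadjusted p values of each MMC comparison and the 3 of their difference. Other genes were the 2 largest called per list, CDKN1A and markers.

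Same-numbered arrays with and without MMC correlated in their deviations from group means, at 0.70, 0.54 and 0.35 in siIPMK and 0.49, 0.19 and 0.42 in siCONTROL, so the MMC comparisons were also fitted by pairs. In siIPMK, arrays of unlike number correlated as well, at 0.36 for experiment 2 without MMC and 3 with it. The value was 0.42 for experiment 3 without MMC and 2 with it. So in siIPMK the numbers set only experiment 1 clearly apart. Across siRNAs the correlations of same-numbered arrays were 0.06, 0.20 and -0.02 with MMC and 0.09, 0.12 and 0.13 without it. On simulated data for the comparison of siIPMK with siCONTROL without MMC, with 200 of 9409 genes shifted by 1 on the log2 scale, 82.5% were recovered, with 10 calls among the other genes. The simulated noise was independent between genes, unlike the shared deviation of the siIPMK arrays of experiment 1. Fewer genes were shifted than were called in the data. So these figures check that the fit runs correctly and do not give its error rates here. Alternatives changed scaling, background correction, detection filter, probe choice, arrays and blocks.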

Additional observations from a re-analysis of the deposited data

How the results depend on the processing

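In both comparisons of siIPMK with siCONTROL no member rose, and the median of the 50 genes stayed under 0, under each alternative run. The genes called as falls ranged, leaving out 1 array at a time, from 41 to 46 with MMC and from 28 to 44 without it, the 28 being without siIPMK experiment 2, and the medians from -1.08 to -0.70 and from -0.94 to -0.60. Over all 9409 genes, falls in these runs ranged from 1398 to 2214 with MMC and from 1236 to 2194 without it. The 1236 was also without siIPMK experiment 2. Falls of 2-fold or more moved most. They ranged from 7 to 29 with MMC and from 5 to 21 without it when 1 array was left out. They were 7 and 5 in the authors' deposited values, 29 and 21 without experiment 1 of both siIPMK groups, and 29 and 23 without experiment 1 in all 4 groups, where the median with MMC was -1.10. With MMC they were 10 with median scaling over all probes and 10 with no background correction. Over all genes such falls were 3.2% with MMC and 2.94% without it in the main fit. They were 4.96% and 4.69% without experiment 1 of both siIPMK groups, and were not counted over all genes for the other runs. Median scaling over all probes put the median of all genes at 0.14 with MMC and 0.13 without it, against 0.01 and 0.00. It gave 39 and 33 falls among the 50, beside 1088 and 1066 falls over all genes. It made 69.5% and 69.6% of all calls rises, against 50.5% and 50.7%. Scaling over the kept probes, chosen after seeing the data, gave 46 and 43 falls, beside 2109 and 2328 over all genes. There 46.8% and 42.9% of all calls were rises.

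The experiment number as a replicate block left 46 falls with MMC and 41 without it, beside 2164 and 2173 falls over all genes. The replicate block within each siRNA is the fit by pairs, which gave 6 falls under MMC in siIPMK cells and 3 rises and 4 falls in siCONTROL cells; together with leaving out experiment 1 of both siIPMK groups these became 4, and 3 and 5, and the difference of MMC changes passed for 1 gene. For MMC in siCONTROL cells its own 6 arrays gave 2 rises, beside 239 rises and 38 falls over all genes. Leaving out experiment 1 of both siIPMK groups gave 1 fall there, beside 354 rises and 93 falls. For MMC in siIPMK cells leaving out experiment 1 in all 4 groups gave 2 falls, beside 34 rises and 9 falls. Leaving out 1 array, 0 genes passed in these comparisons, and the medians ranged from -0.38 to 0.02 in siIPMK cells, from -0.08 to -0.02 in siCONTROL cells and from -0.32 to 0.03 for the difference.

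Alternatives were run gene by gene for the genes given with every array, and among these the changes that turned direction were near 0. With MMC, leaving out 1 array gave -0.18 to 0.09 for ANLN, -0.19 to 0.02 for STIL and -0.02 to 0.25 for CKS2. ANLN was 0.12 with median scaling over all probes, 0.04 and 0.01 without siIPMK and MMC experiment 2 or 3, and 0.09 without siCONTROL and MMC experiment 1. STIL was 0.03 with that scaling and 0.02 without siIPMK and MMC experiment 2. CKS2 was -0.02 without siIPMK and MMC experiment 1, without experiment 1 of both siIPMK groups and without it in all 4 groups. Without MMC, INCENP was 0.08 and ANLN 0.02 with median scaling over all probes, and CKS2 was -0.13 with scaling over kept probes and -0.01 without experiment 1 in all 4 groups. Dim probes limit NCAPH, MKI67 and FZR1, whose falls with no background correction were -0.39, -0.73 and -0.43 with MMC, against -0.74, -1.35 and -0.82. The causes were not tested.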
